A study of Mus musculus with 12 samples.

Results

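The desaturases and elongases of fatty acids were followed across mouse cardiomyocyte RNA as a set of 8 genes: Scd1, Scd2, Fads1, Fads2, Fads3, Elovl1, Elovl5 and Elovl6. They were taken by name after the gene identifiers of the count files had been matched to the GENCODE M21 annotation of GRCm38, and all 8 were found among the 55335 identifiers listed. The set was chosen with the high fat diet response under the knockout label in view, in which Scd2 had stood out. Values of that comparison are therefore given as a description without a test, as is the difference of the diet effects, which contains it.

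Bulk RNA of cardiomyocytes, the contracting muscle cells of the heart, was sequenced from male mice that were 7 to 8 weeks old when put on their diets. The design crossed strain with diet. Mice were C57BL/6J or ApoE KO (B6.129P2-Apoe tm1Unc/J), in which the apolipoprotein E gene is disrupted in all cells, not in cardiomyocytes alone. The diets, given for 7 weeks, were standard chow and a high fat diet of Western type that held 0.21% cholesterol. The groups are called WT_CD, WT_HFD, ApoeKO_CD and ApoeKO_HFD, for wild type or knockout on chow diet or high fat diet, and each held 3 libraries.

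Fatty acids made or taken up by a cell are reshaped on the endoplasmic reticulum. Stearoyl-CoA desaturases (the Scd genes) place the first double bond into saturated chains and so make oleate and palmitoleate. The Fads genes encode front-end desaturases: the products of Fads2 and Fads1 act in turn on essential fatty acids on the way to arachidonate and docosahexaenoate, and Fads3 acts on sphingoid bases. The Elovl genes encode the condensing enzymes that lengthen chains, Elovl6 for saturated and monounsaturated, Elovl5 for polyunsaturated and Elovl1 for very long saturated chains. Scd, Fads and Elovl6 genes are known targets of the transcription factor SREBP-1c and, for several of them, of the oxysterol receptors LXR.

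The 11 libraries used had 22130323 to 46424614 counts, of which 51.5% to 71.3% fell on mitochondrial genes. WT_HFD replicate 3 was left out, so n = 2 for WT_HFD and n = 3 for the other groups. It had 1347110 counts. Counts were also taken at 372 non-coding genes and the coding genes they overlap on the opposite strand. In this library 71.8% of those lay on the non-coding genes (Wilson 95% interval 71.6% to 72.0%), against 0.1001% to 0.171% in the 11 others. With it in the fit the log2 fold changes of Scd2 moved little while their errors grew. ApoeKO_HFD against ApoeKO_CD, a description for which no call is given in either fit, had 1.74 (SE 0.29). WT_HFD against ApoeKO_CD had 1.48 (SE 0.29), and its call was lost (edgeR adjusted p = 0.565). The 8 listed cardiomyocyte markers were all detected, and their summed level was 83410 to 96670 CPM in these 11 libraries. Apoe, the targeted gene, went against the chow labels: it had 2.12 to 3.61 CPM in the libraries labelled WT_CD and 6.93 to 25.3 CPM in those labelled ApoeKO_CD, against 8.44 to 18.9 CPM for WT_HFD and 1.94 to 3.16 CPM for ApoeKO_HFD. Groups are therefore named by their labels throughout, and any direction drawn between the 2 chow groups rests on labels that this gene goes against. Each diet comparison under the same label also sets a group low in Apoe against a group high in it. Diet and the level of Apoe cannot be told apart there. Levels are CPM, the counts of a gene scaled to a common library size, after TMM scaling of library sizes, and between genes they are compared only per kilobase of exon.

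The Scd genes lie side by side on chromosome 19 and are close copies, which bears on how reads could be assigned to each. Between the coding sequences of Scd1 and Scd2, 90.3% of aligned bases were identical, against 84.1% between Scd2 and Scd4. Of all 50-base windows in the Scd2 transcript, 3.79% occurred unchanged in another Scd transcript, and 4.66% did so for Scd1. The longest run identical between Scd1 and Scd2 was 147 bases. The lines show 60 bases from that run, at positions 575 to 634 of the Scd2 coding sequence, on the coding strand from the GENCODE M21 transcripts of GRCm38. They are shown because a read from this stretch could not be told apart among 3 of the 4 genes. Capitals mark bases that differ from Scd2.
Scd2: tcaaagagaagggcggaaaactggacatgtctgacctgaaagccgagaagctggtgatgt
Scd1: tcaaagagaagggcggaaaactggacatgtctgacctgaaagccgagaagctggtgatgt
Scd3: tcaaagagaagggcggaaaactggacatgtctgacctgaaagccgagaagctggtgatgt
Scd4: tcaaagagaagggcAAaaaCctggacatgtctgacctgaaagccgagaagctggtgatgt

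Scd4 differed at 3 of these 60 bases. Elsewhere the genes part more clearly. The next lines show the stretch at positions 295 to 354 of the Scd2 coding sequence, chosen by a search for the window with the most differences, with capitals again marking what differs from Scd2.
Scd2: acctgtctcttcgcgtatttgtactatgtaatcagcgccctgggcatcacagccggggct
Scd1: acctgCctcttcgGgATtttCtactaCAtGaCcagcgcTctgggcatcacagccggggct
Scd3: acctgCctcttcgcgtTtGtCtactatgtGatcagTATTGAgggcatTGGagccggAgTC
Scd4: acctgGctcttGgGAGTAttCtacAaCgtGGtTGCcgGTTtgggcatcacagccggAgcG

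Here Scd1 differed from Scd2 at 10 bases, Scd3 at 17 and Scd4 at 20. The Fads and Elovl genes are less alike. Fads1 and Fads2 shared 67.9% of aligned coding bases, the 3 Elovl genes 61.9% to 63.0%, and no 50-base window of Fads1 recurred in Fads2 or Fads3, nor one of Elovl1, Elovl5 or Elovl6 in the other two. Other Elovl and Fads genes were not compared. The read length is not given in the sources used here.

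By level per kilobase, Fads3 was the most abundant of the 8 genes and Elovl6 the least. Fads3 had 6.03 ± 0.748 CPM per kilobase (SD over 11 libraries), and its lowest library, at 4.84, was above every library of the other 7. Next in order were Scd2 at 1.56 ± 0.954, Elovl5 at 1.01 ± 0.141, Fads1 at 0.680 ± 0.111 and Elovl1 at 0.465 ± 0.107 CPM per kilobase. Scd1 had 0.227 ± 0.125, Fads2 0.0923 ± 0.0522 and Elovl6 0.0242 ± 0.0160. Below Fads3, each gene overlapped its neighbour in this order, so neighbours are not separated beyond the spread between libraries. Genes further apart are: every library of Elovl5 (0.732 or more) was above every library of Elovl1 (0.703 or less), Scd1, Fads2 and Elovl6, and every library of Scd2 (0.429 or more) above those of Fads2 and Elovl6. Scd4, which is outside the set, had 1.90 ± 0.799 CPM per kilobase and was thus as abundant as Scd2 within that spread.

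**Figure D1:**
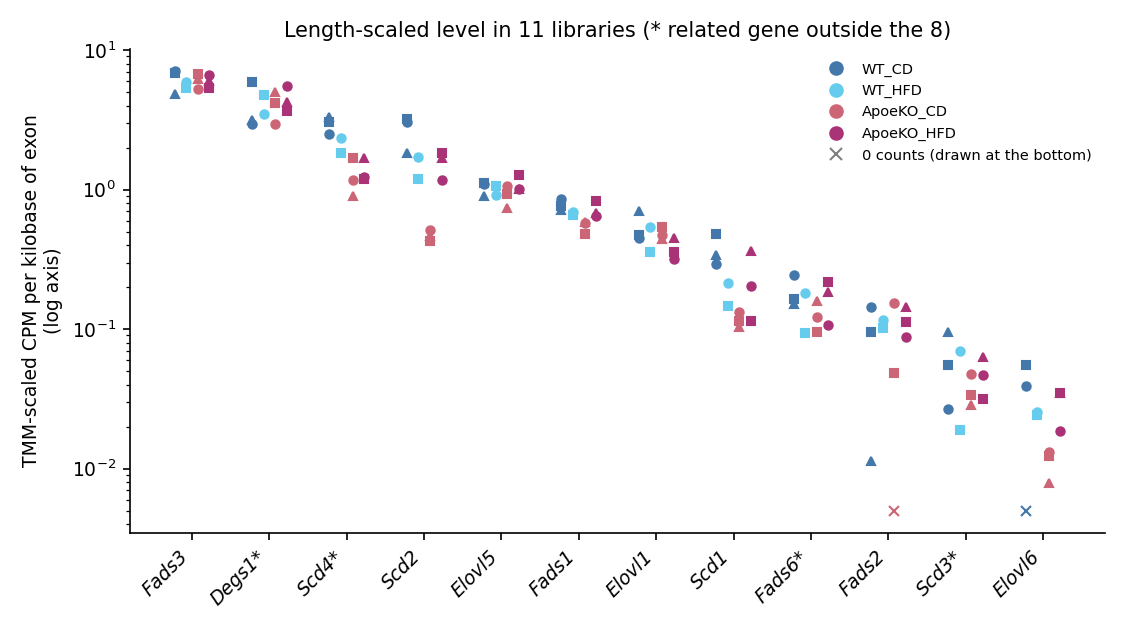
Level per kilobase of exon (TMM-scaled CPM per kilobase, log axis) of the 8 genes and of 4 related genes marked with an asterisk, 1 symbol per library, coloured by group, with circle, square and triangle for replicates 1, 2 and 3. Fads3 lies above the other 7 in every library, Scd2 spreads from 0.429 to 3.22, and crosses at the bottom mark libraries with 0 counts.

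The genes also differed in how much they varied. The coefficient of variation over the 11 libraries was 12.4% for Fads3, 14.0% for Elovl5, 16.3% for Fads1 and 23.0% for Elovl1. It was 61.2% for Scd2 and 55.1% for Scd1. Fads2 and Elovl6 had 56.6% and 66.1%, but from 0 to 19 and 0 to 9 counts per library, where counting error alone is large.

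Scd2 (ENSMUSG00000025203, chromosome 19, 44293674 to 44306864, plus strand) encodes the stearoyl-CoA desaturase known from brain and other tissues outside the liver. Its level in the libraries labelled WT_CD was 16.8, 17.6 and 10.04 CPM. Those labelled ApoeKO_CD had 2.81, 2.35 and 2.53 CPM. On the high fat diet the libraries labelled WT_HFD had 9.29 and 6.55 CPM, and those labelled ApoeKO_HFD had 6.41, 10.08 and 9.19 CPM. The 3 libraries labelled ApoeKO_CD were thus the lowest of all 11 and close to each other, the 2 high fat groups overlapped, and WT_CD held the highest values, with replicate 3 inside the range of ApoeKO_HFD. In this bulk RNA, fewer cells of a type that expresses a gene and less of its RNA per cell cannot be told apart. The counts behind these levels were 59 to 530 per library.

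Under the labels, Scd2 therefore took opposite courses with diet, in comparisons whose groups also differed in Apoe. In WT_HFD against WT_CD, which shares no library with the comparison that the set was chosen from, the log2 fold change was -0.91 (SE 0.24, adjusted p = 0.168, edgeR quasi-likelihood test with Benjamini-Hochberg adjustment over 16932 genes), which did not pass. It passed with DESeq2 (adjusted p = 0.0411), without the filter on low counts (adjusted p = 0.0327) and without WT_CD replicate 3 (log2 fold change -1.12, adjusted p = 0.0486). In ApoeKO_HFD against ApoeKO_CD the log2 fold change was 1.73 (SE 0.23), 3.31-fold higher, given as a description. The difference of the diet effects, knockout label minus wild-type label, was 2.63 (SE 0.34), also a description.

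Between the chow groups, ApoeKO_CD had 5.75-fold less Scd2 than WT_CD. The fitted log2 value was -2.52 (SE 0.23, edgeR adjusted p = 4.14e-05). Each of the 3 ApoeKO_CD libraries lay below each of the 3 WT_CD libraries. In WT_HFD against ApoeKO_CD Scd2 was 3.07-fold higher, at 1.62 on the log2 scale (SE 0.25, edgeR adjusted p = 0.0443). Both comparisons use the ApoeKO_CD libraries, whose low Scd2 was part of what drew attention to the gene. These p-values, and whether they hold with 1 library left out, are therefore not independent of that choice and are no support of their own. The former call held in each of 11 fits that left out 1 library, with log2 fold changes of -2.74 to -2.38 and a highest adjusted p of 0.00121. The latter had log2 fold changes of 1.36 to 1.87 over the 11 fits. Its call was lost without WT_CD replicate 1, any 1 of the ApoeKO_CD libraries, or ApoeKO_HFD replicate 2 or 3 (highest edgeR adjusted p = 0.474). Leaving out 1 WT_HFD library leaves a lone sample in that group, so no call is given for those fits.

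Scd2 did not pass in the other pairs of groups. ApoeKO_HFD against WT_HFD gave 0.11 (SE 0.24, adjusted p = 1.00 by edgeR). ApoeKO_HFD against WT_CD gave -0.80 (SE 0.21, adjusted p = 0.139 by edgeR), which passed with DESeq2 (adjusted p = 0.0412) and without the filter (adjusted p = 0.0203). Nothing in the labels ties a replicate to an animal of its own, so every p-value measures only the spread between these libraries, which may be technical.

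**Figure D2:**
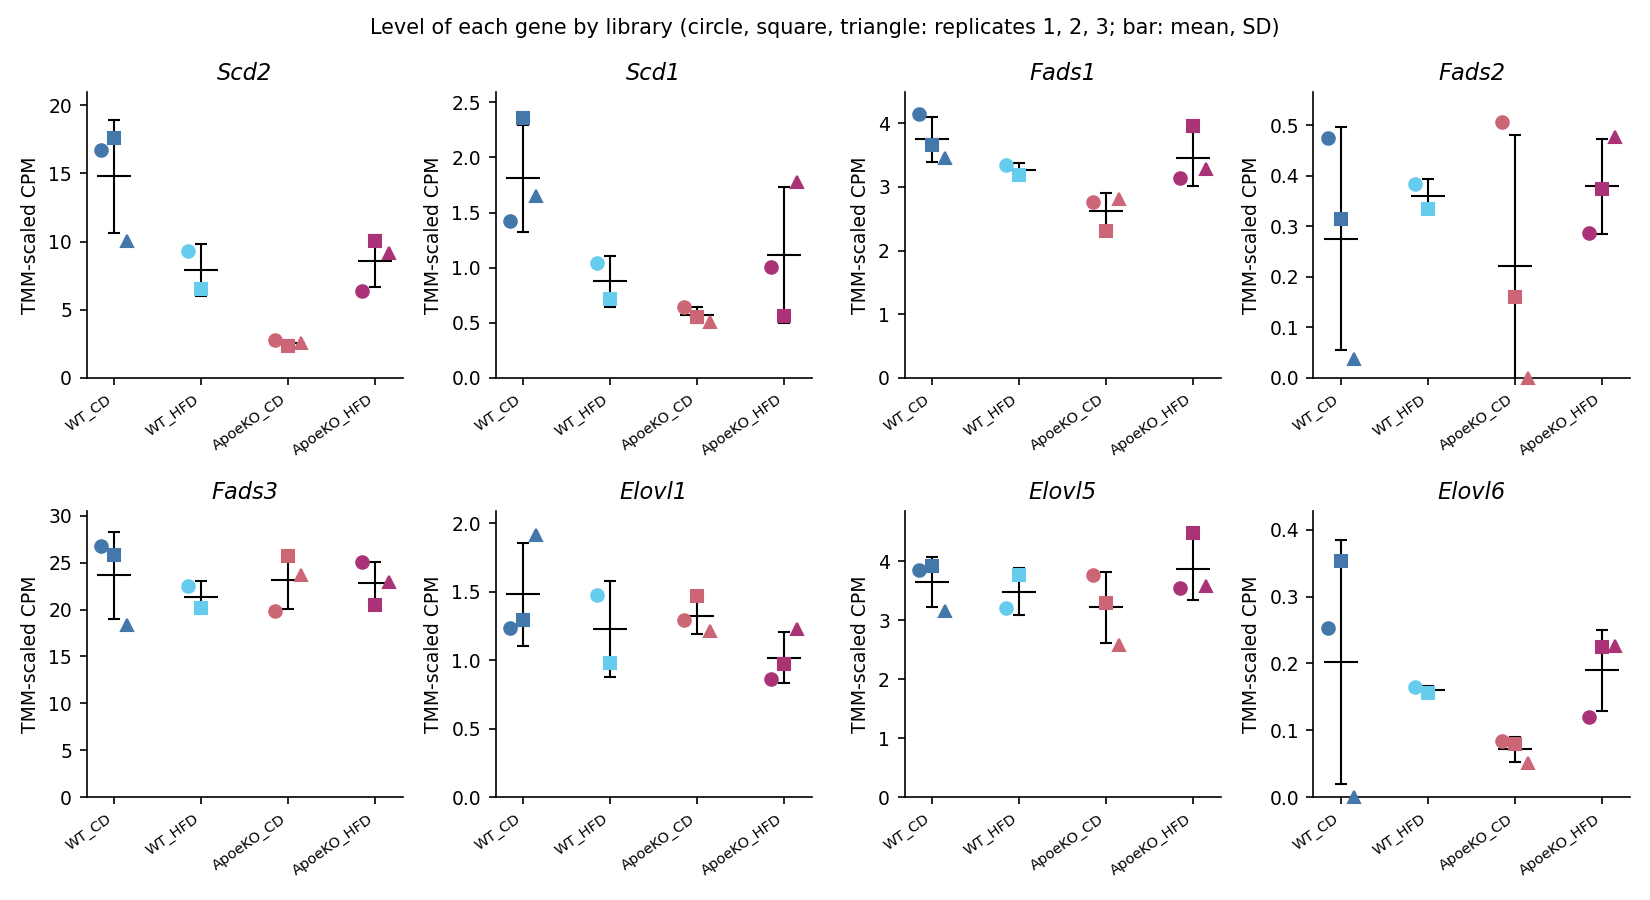
TMM-scaled CPM of each of the 8 genes by group, with circle, square and triangle for replicates 1, 2 and 3 and a bar with whiskers for the group mean and SD (n = 2 for WT_HFD, n = 3 otherwise); the lower whisker of Fads2 in ApoeKO_CD would run below 0 and stops at the axis. Scd2, Scd1 and Fads1 have their lowest group mean in ApoeKO_CD and their highest in WT_CD, and Fads3 lies between 18.4 and 26.8 in every library.

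Scd1 (ENSMUSG00000037071, chromosome 19, 44394455 to 44407879, minus strand) encodes the stearoyl-CoA desaturase best known from liver and adipose tissue, where it responds to insulin and sugar. It had 14 to 71 counts per library here. Its level was 1.42, 2.35 and 1.65 CPM in the libraries labelled WT_CD and 0.647, 0.557 and 0.506 CPM in those labelled ApoeKO_CD. It was 1.04 and 0.713 CPM in WT_HFD and 1.00, 0.560 and 1.78 CPM in ApoeKO_HFD. WT_CD lay above both WT_HFD and ApoeKO_CD without overlap, while ApoeKO_HFD spread over the range of all 3 other groups. ApoeKO_CD against WT_CD gave a log2 value of -1.66 (SE 0.40, edgeR adjusted p = 0.067), which missed the threshold. It passed with DESeq2 (adjusted p = 0.00868), without the filter (adjusted p = 0.0121) and without WT_CD replicate 2 (log2 fold change -1.43, adjusted p = 0.0377). WT_HFD against WT_CD gave -1.04 (SE 0.44, adjusted p = 0.324 by edgeR). In ApoeKO_HFD against ApoeKO_CD the value was 0.99 (SE 0.41), as a description.

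The other stearoyl-CoA desaturase genes, Scd3 and Scd4, put these values into the setting of their locus. Scd4 (chromosome 19, 44333092 to 44346743) is known as the isoform of the heart. It had 9.49, 11.5 and 12.4 CPM in the libraries labelled WT_CD, 8.88 and 6.93 CPM in WT_HFD, 4.42, 6.36 and 3.41 CPM in ApoeKO_CD, and 4.66, 4.48 and 6.39 CPM in ApoeKO_HFD. Unlike Scd2, its levels overlapped between the 2 knockout-labelled groups. Scd4 was called lower in ApoeKO_CD against WT_CD, at -1.245 (log2, SE 0.22, edgeR adjusted p = 0.00916), and in ApoeKO_HFD against WT_CD, at -1.10 (SE 0.21, edgeR adjusted p = 0.0477). The former call was lost without WT_CD replicate 3, ApoeKO_CD replicate 1 or ApoeKO_CD replicate 3 (range over 11 fits -1.502 to -1.045). The latter held in 5 of 11 fits that left out 1 library and was lost without WT_CD replicate 1 or 3, ApoeKO_CD replicate 1, or any 1 of the ApoeKO_HFD libraries. It was also lost with only the groups compared (adjusted p = 0.0523), voom with sample weights (0.0725) and the replicate block (0.082). With all 12 libraries both calls were lost at nearly the same size, -1.243 and -1.11. Scd3 had 3 to 9 counts per library and was not tested.

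Together the Scd genes amounted to 24.4 to 31.6 CPM in the libraries labelled WT_CD, 14.3 to 19.5 in WT_HFD, 6.55 to 9.38 in ApoeKO_CD and 12.3 to 17.6 in ApoeKO_HFD. The share of Scd2 in that sum was 25.0% to 38.6% in ApoeKO_CD and 52.3% to 66.2% in ApoeKO_HFD, with WT_CD at 41.1% to 60.4% and WT_HFD at 45.9% and 47.8%. The composition of the sum thus differed between the 2 knockout-labelled groups without overlap, Scd4 taking the larger share in ApoeKO_CD at 52.1% to 67.8%. The 4 genes were also summed to 1 row, an alternative chosen after seeing the data, in which it no longer matters to which of them a read was counted. Reads that matched several genes and were counted for none are not restored by it, and how they were handled is not given in the sources used here. The row differed by -1.81 on the log2 scale between ApoeKO_CD and WT_CD (SE 0.18, adjusted p = 5.56e-05 by edgeR). For WT_HFD against ApoeKO_CD the row gave 1.08 (SE 0.19, edgeR adjusted p = 0.134), so the call of Scd2 alone was lost. For ApoeKO_HFD against WT_CD it gave -0.90 (SE 0.17, edgeR adjusted p = 0.0431), where Scd2 alone had not passed. For WT_HFD against WT_CD it gave -0.73 (SE 0.19, edgeR adjusted p = 0.163), which did not pass. In ApoeKO_HFD against ApoeKO_CD it gave 0.92 (SE 0.18), against 1.73 for Scd2 alone. The sum contains Scd4, whose own change in that comparison was 0.15 (SE 0.22).

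**Figure D3:**
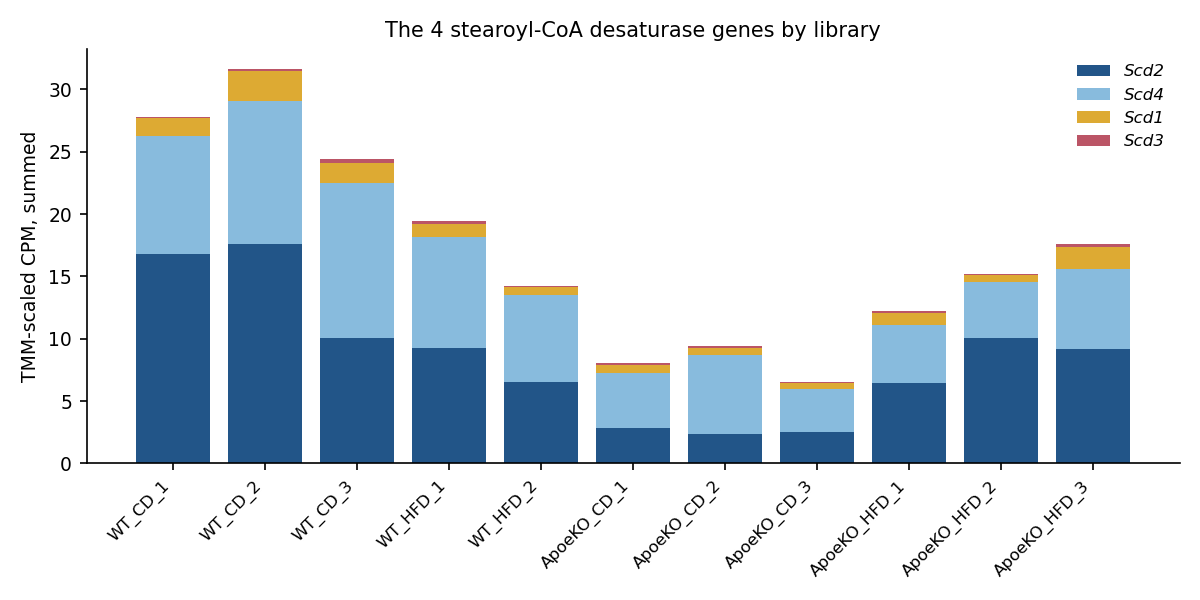
TMM-scaled CPM of the 4 Scd genes stacked for each of the 11 libraries. The stack is lowest in the 3 libraries of ApoeKO_CD, where Scd4 is the larger portion, and highest in the 3 of WT_CD.

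Fads1 (ENSMUSG00000010663, chromosome 19, 10182888 to 10196877, plus strand) encodes the delta-5 desaturase that makes arachidonate. It followed the same order of groups as Scd2 over a narrow range. The libraries labelled WT_CD had 4.14, 3.65 and 3.46 CPM, those labelled WT_HFD 3.34 and 3.18, those labelled ApoeKO_CD 2.76, 2.31 and 2.81, and those labelled ApoeKO_HFD 3.13, 3.96 and 3.28. ApoeKO_CD was below each other group without overlap on the TMM scale and, by CPM of nuclear genes, at 6.21 to 7.54 against 8.05 or more elsewhere. By plain CPM over all counts, mitochondrial ones included, it spread from 2.31 to 3.48 and overlapped each other group. Its fitted value in ApoeKO_CD against WT_CD was -0.51 on the log2 scale (SE 0.20, edgeR adjusted p = 0.221). Fads1 did not pass in any pair of groups given with a test, under any alternative run. Its value in ApoeKO_HFD against ApoeKO_CD was 0.39 (SE 0.20), as a description.

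Fads2 (ENSMUSG00000024665, chromosome 19, 10062765 to 10101746, minus strand), which encodes the delta-6 desaturase at the entry of the polyunsaturated pathway, was close to the limit of detection. Its counts were 15, 8 and 1 in the libraries labelled WT_CD, 14 and 15 in WT_HFD, 18, 4 and 0 in ApoeKO_CD and 12, 10 and 19 in ApoeKO_HFD. The library with 0 counts allows a level of up to 0.0759 CPM (3 counts, counting error only). Replicates of 1 group differed by more than any 2 group means, and the SE of its log2 fold changes was 0.85 to 0.94. A difference between groups was not detectable at this depth.

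Fads3 (ENSMUSG00000024664, chromosome 19, 10041569 to 10060110, plus strand) varied least. Its 488 to 1048 counts per library gave 18.4 to 26.8 CPM in WT_CD, 20.2 to 22.6 in WT_HFD, 19.9 to 25.8 in ApoeKO_CD and 20.5 to 25.1 in ApoeKO_HFD, so all groups overlapped. Its log2 fold changes over the 6 pairs of groups lay between -0.15 and 0.10 with SE of 0.15 to 0.17. Fads1, Fads2 and Fads3 are neighbours on chromosome 19, and of the 3 Fads1 alone had a group apart from each other group, by TMM-scaled but not by plain CPM.

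Among the elongases, Elovl5 (ENSMUSG00000032349, chromosome 9, 77917364 to 77984519, plus strand) had 3.16 to 3.92 CPM in WT_CD, 3.21 and 3.76 in WT_HFD, 2.58 to 3.77 in ApoeKO_CD and 3.54 to 4.48 in ApoeKO_HFD. All pairs of groups overlapped, and log2 fold changes lay between -0.18 and 0.26 with SE of 0.21 to 0.23. Elovl1 (ENSMUSG00000006390, chromosome 4, 118428093 to 118432953, plus strand) had 26 to 54 counts per library. Its levels were 1.23, 1.30 and 1.92 CPM in WT_CD and 0.861, 0.970 and 1.23 CPM in ApoeKO_HFD, the highest of the latter just below the lowest of the former. That comparison gave -0.53 (SE 0.31, adjusted p = 0.459 by edgeR), and the groups overlapped when plain CPM was used. Elovl1 shares 53 exon bases with Cdc20 on the other strand.

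Elovl6 (ENSMUSG00000041220, chromosome 3, 129532355 to 129638495, plus strand), the elongase that works beside Scd1 in lipogenic tissues, did not pass the filter on low counts and was not tested. It had 8, 9 and 0 counts in the libraries labelled WT_CD, 6 and 7 in WT_HFD, 3, 2 and 2 in ApoeKO_CD and 5, 6 and 9 in ApoeKO_HFD. Both high fat groups were above ApoeKO_CD, though by a few counts per library, and the library with 0 counts allows up to 0.113 CPM.

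Of the 8 genes, 7 passed the filter on low counts, so counts over the set cover those 7. In ApoeKO_CD against WT_CD, 1 of the 7, Scd2, was called lower, where 0.384% of all tested genes were called lower and 0.508% in either direction. This call reuses the ApoeKO_CD libraries of the comparison behind the choice of genes, so nothing is read from it. All 7 log2 fold changes were below 0, with a median of -0.33 against -0.01 over all genes. Scd1, Scd2 and Fads1 were lower without overlap between the groups, as were 7.67% of all tested genes. In WT_HFD against WT_CD, 0 of 7 were called by edgeR (0.207% of all genes; 2 of the 7 had an unadjusted p under 0.05, Scd1 and Scd2, and DESeq2 called 1). There 6 of 7 were below 0, the median was -0.20, and the same 3 genes were lower without overlap, as were 11.8% of all genes.

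ApoeKO_HFD against ApoeKO_CD is the comparison behind the choice of genes, so its outcome was fixed by that choice and nothing is read from it. The median was 0.39, Scd2 and Fads1 were higher without overlap (5.04% of all genes), and 0.0709% of all genes were called in either direction and 0.0532% higher. In WT_HFD against ApoeKO_CD 1 of 7 was called, Scd2 (0.0118% of all genes in either direction, 0.00591% higher), the median was 0.31, and Scd1, Scd2 and Fads1 were higher without overlap, as were 10.3% of all genes. In ApoeKO_HFD against WT_HFD 0 of 7 were called (0.0472% of all genes; 0 of 7 at an unadjusted p under 0.05 and 0 by DESeq2) and all 7 overlapped, where 11.3% of all genes were higher and 10.3% lower without overlap. In ApoeKO_HFD against WT_CD 0 of 7 were called by edgeR (0.154% of all genes), with 1 of 7, Scd2, at an unadjusted p under 0.05 and called by DESeq2, and Elovl1 alone was lower without overlap (7.22% of all genes). For the difference of the diet effects, which contains the comparison behind the choice, 0.219% of all genes were called and no call of a member is given. These comparisons share libraries and are not separate evidence. The call of Scd2 in WT_HFD against ApoeKO_CD likewise reuses the ApoeKO_CD libraries behind the choice, so nothing is read from it. The 3 pairs of groups with WT_CD also had more genes at an unadjusted p under 0.05, 2176 to 2686, than the 259 to 480 of the 3 pairs without it, and the WT_CD libraries had the lowest weights when libraries were weighted by their fit, 0.372 to 0.676 against 0.743 to 2.13. The part of this in the values of the Scd genes was not tested.

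**Figure D4:**
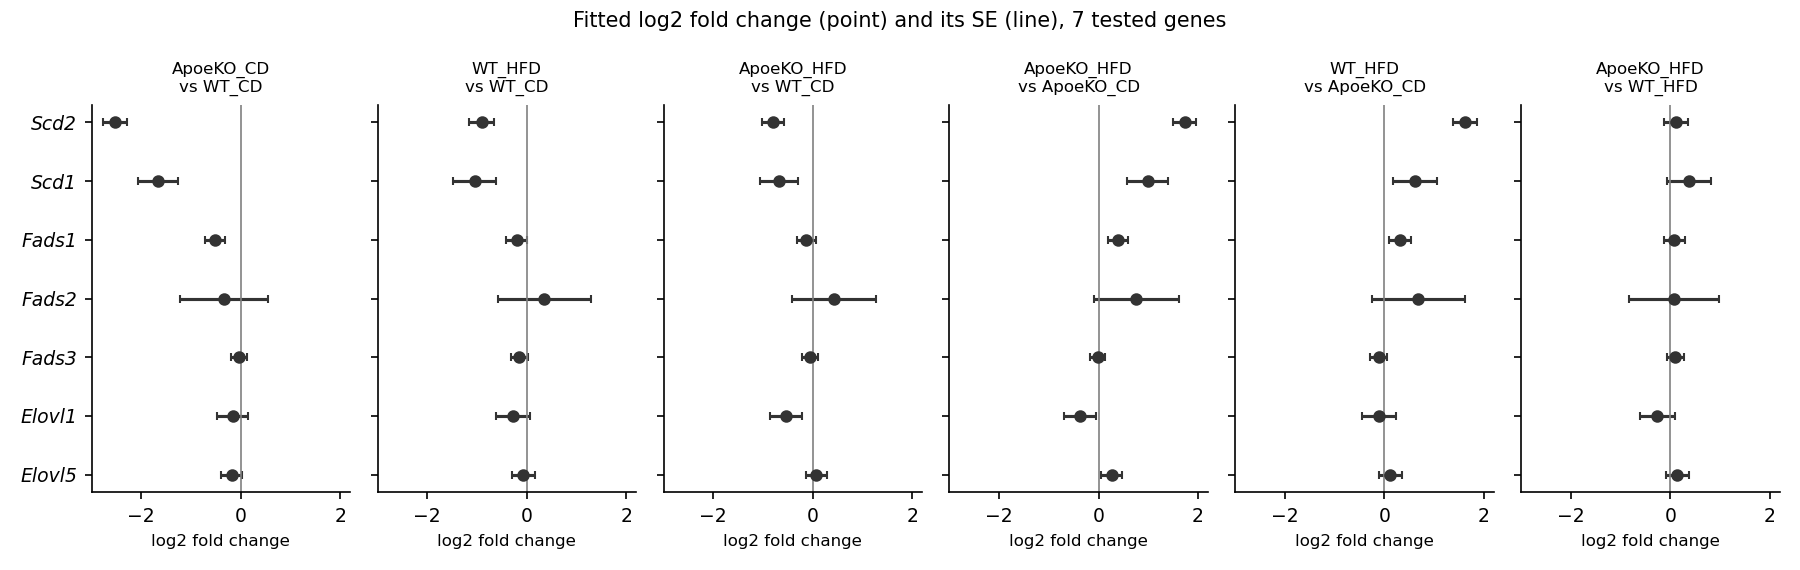
Fitted log2 fold changes (points) with their SE (lines) of the 7 tested genes in 6 pairs of groups, with a vertical line at 0. Scd2 lies at -2.52 in ApoeKO_CD against WT_CD and near 0 in ApoeKO_HFD against WT_HFD, and Fads3 lies near 0 in each pair.

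Of the transcription factors known to act on these genes, Srebf1, which encodes SREBP-1, had 25.5 to 39.5 CPM in the libraries labelled WT_CD, 25.5 and 26.4 in WT_HFD, 9.65 to 17.9 in ApoeKO_CD and 15.5 to 16.6 in ApoeKO_HFD. It was called lower in ApoeKO_CD against WT_CD (log2 fold change -1.13, SE 0.19, edgeR adjusted p = 0.00859, lost without WT_CD replicate 3 and with all 12 libraries). Its value with diet was -0.26 (SE 0.21) under the wild-type label, which did not pass, and 0.16 (SE 0.19) under the knockout label, as a description. In ApoeKO_HFD against WT_CD it was -0.97 (SE 0.19, edgeR adjusted p = 0.0495), called in 4 of 11 fits that left out 1 library and lost in 5 of 9 other settings (adjusted p 0.0523 to 0.999). Srebf2 (SREBP-2), Nr1h2 (LXR-beta), Insig1 (a retention factor of SREBP) and Mlxipl (the sugar-responsive factor ChREBP) were not called in any pair of groups given with a test. Nr1h3 (LXR-alpha) had 5.45 to 5.56 CPM in ApoeKO_HFD, above ApoeKO_CD at 3.69 to 4.25 and WT_HFD at 3.32 and 4.52, while WT_CD spanned it at 3.91 to 5.79. The log2 value of Nr1h3 in ApoeKO_HFD was 0.46 (SE 0.19) against ApoeKO_CD, as a description. Against WT_HFD it was 0.49 (SE 0.21), which did not pass by edgeR. In all, 1 of 23 listed regulators was called in ApoeKO_CD against WT_CD and in ApoeKO_HFD against WT_CD, Srebf1 each time. Of all genes, 0.508% and 0.154% were called there. In each other comparison given with a test, 0 of 23 were called in the main fit. In ApoeKO_HFD against WT_HFD Srebf1 passed without the filter (-0.75, edgeR adjusted p = 0.0258) and with only the groups compared (-0.71, edgeR adjusted p = 0.0383). It also passed without the filter in WT_HFD against ApoeKO_CD (0.91, edgeR adjusted p = 0.000906).

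The enzymes around the set were not called in any comparison given with a test, close to the 0.0118% to 0.508% of all tested genes called. This holds for 12 partners of elongation and desaturation (the reductases, dehydratases and cytochrome b5 proteins that complete each cycle), 11 genes of fatty acid synthesis, 10 acyl-CoA synthetases that activate fatty acids, 22 acyltransferases that place them into lipids, and 11 genes of peroxisomal chain shortening, all as tested members of their lists. Medians in ApoeKO_CD against WT_CD were 0.00 for the partners, -0.03 for synthesis, -0.30 for the synthetases, 0.00 for the acyltransferases and -0.06 for the peroxisomal genes. Fasn, the fatty acid synthase, had 17.03 to 18.3 CPM in the libraries labelled WT_CD, 14.3 and 14.7 in WT_HFD, 12.04 to 14.4 in ApoeKO_CD and 16.2 to 17.6 in ApoeKO_HFD. It had the smallest p of its list in both diet comparisons, with -0.28 (SE 0.14, adjusted p = 0.405 by edgeR) under the wild-type label and 0.36 (SE 0.12, as a description) under the knockout label. In WT_HFD against WT_CD the smallest p of the acyltransferases belonged to Lclat1, which remodels cardiolipin (0.73, SE 0.18, adjusted p = 0.122), of the partners to Cyb5r4 (0.43, SE 0.19, adjusted p = 0.361), of the synthetases to Acsl4, which prefers arachidonate (0.43, SE 0.24, adjusted p = 0.450), and of the peroxisomal genes to Acaa1a (-0.34, SE 0.15, adjusted p = 0.358), all by edgeR. The second smallest belonged to Mecr for synthesis (-0.49, SE 0.26), Dgat1 for the acyltransferases (-0.35, SE 0.19), Cyb5a for the partners (-0.33, SE 0.22), Acsf3 for the synthetases (-0.28, SE 0.17) and Acox2 for the peroxisomal genes (-1.22, SE 0.78).

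Under the knockout label, described without a test, the log2 values of the same kind were -0.61 (SE 0.46) for Hacd4 and 0.15 (SE 0.15) for Cyb5r3 among the partners, and -0.20 (SE 0.16) for Acly in synthesis. Among the synthetases they were -0.51 (SE 0.20) for Acsl6 and 0.19 (SE 0.17) for Slc27a4. The acyltransferases Agpat1 and Lpin3 had 0.21 (SE 0.14) and 0.45 (SE 0.31), and the peroxisomal genes Acot8 and Ehhadh 0.34 (SE 0.27) and -0.21 (SE 0.26).

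Within the set, levels were compared library by library as a description, over 11 points that share depth, scaling and group. Of 21 pairs among the 7 tested genes, Pearson r of log2 CPM was above 0.5 in 6 and below 0 in 7, with a median of 0.183. The highest was Scd2 with Fads1, r = 0.916 (Spearman rho = 0.964), and r was 0.650 once group means were removed. Fads2 and Elovl5 had r = 0.79, and 0.792 within groups, the highest there, though Fads2 rests on 0 to 19 counts. Scd1 and Scd2 had r = 0.778, and 0.133 within groups. Fads3 and Elovl1 had no r above 0.311 with any of the others.

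Likeness was then ranked over 8569 named genes with a mean log2 CPM of at least 1, again by Pearson r over the 11 libraries. The 4 genes most like Scd2 were Fads1 (0.916), Tmem53 (0.907), Abca1 (0.904) and Samd4b (0.894). Abca1, the cholesterol efflux transporter, had 66.8 ± 6.20 CPM in the libraries labelled WT_CD, 52.0 ± 9.25 (n = 2) in WT_HFD, 27.4 ± 6.56 in ApoeKO_CD and 42.1 ± 1.67 in ApoeKO_HFD. Scd4 stood at rank 104 for Scd2 and Srebf1 at rank 217. For Fads1 the 5 were Scd2 (0.916), Samd4b (0.901), Gorasp1 (0.879), Zfp746 (0.855) and Crebzf (0.854). Scd1 was led by Ywhag (0.831), Syde1 (0.822), Ccnk (0.815), Rnps1 (0.807) and Nelfe (0.801), with Scd2 at rank 19 and Scd4 at rank 21. Fads2 was led by Fgd6 (0.951), Acer2 (0.808), Uvssa (0.803), Cyb5d1 (0.797) and Lrrc8a (0.797), but its own values rest on 0 to 19 counts. Elovl6 was not ranked, as it did not pass the filter.

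Markers of other cell types moved with some of these groups. The summed level of 7 adipocyte markers, adipocytes being rich in Scd1, was 14.6 to 40.6 CPM in the libraries labelled WT_CD, 21.9 and 37.9 in WT_HFD, 11.9 to 16.9 in ApoeKO_CD and 16.8 to 24.7 in ApoeKO_HFD. Nearly all of it was Fabp4, which capillary endothelium also expresses. The 6 others, Adipoq, Plin1, Cidec, Cfd, Lep and Retn, were each at or below 0.746 CPM in every library, and 0 of the 7 were at 0 in all libraries. The 6 endothelial markers summed to 42.5 to 90.0 CPM in WT_CD, 66.8 and 104 in WT_HFD, 41.1 to 55.2 in ApoeKO_CD and 45.01 to 73.2 in ApoeKO_HFD. In ApoeKO_CD against WT_CD, the direction of Scd2, all 6 had log2 fold changes below 0 (median -0.61), as had 51.3% of all genes. Of the 6, 1 was called (0.508% of all genes), Gpihbp1, which anchors lipoprotein lipase on capillaries (-1.53, SE 0.28, edgeR adjusted p = 0.015). In WT_HFD against ApoeKO_CD all 6 were above 0 (median 0.83), in ApoeKO_HFD against ApoeKO_CD likewise (median 0.30), and in WT_HFD against WT_CD 4 of 6 were above 0 (median 0.24), where Scd2 was at -0.91. WT_CD replicates 1, 2 and 3 had adipocyte sums of 34.4, 14.6 and 40.6 CPM and endothelial sums of 90.0, 42.5 and 88.8 CPM. Their Scd2 was 16.8, 17.6 and 10.04 CPM and their Scd1 1.42, 2.35 and 1.65 CPM. The sum of 6 atrial markers was 18.8 to 86.6 CPM in ApoeKO_HFD, below the 109 to 129 CPM of ApoeKO_CD without overlap, against 75.4 to 135 in WT_CD and 7.46 and 198 in WT_HFD. Macrophage markers ranged from 6.04 to 32.5 CPM within ApoeKO_CD alone. The part of atrial, endothelial and adipose RNA in the other values was not tested.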

How the data were processed

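Cardiomyocyte RNA came from the Maxwell RSC simplyRNA kit, and sequencing libraries from SMART-Seq Stranded, per the labels' protocols. The submitters' processing notes name Trimmomatic (0.39), STAR (2.7a), HTSeq (0.13.5) and GRCm38, also called mm10. The values that the authors deposited are raw gene counts. The read length, the strand setting and the annotation release are not given in the sources used here. GENCODE M21 matched 55154 of 55335 identifiers.

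Counts were fitted in R 4.3.3 with edgeR 4.0.16: TMM scaling, the filterByExpr filter, a model with 1 mean for each group, and a quasi-likelihood test in its robust form. The fit held 11 libraries, 16932 genes and 7 residual degrees of freedom. Each edgeR SE was worked back as the absolute log2 fold change divided by the square root of its F statistic, so it is an approximation. Calls have a Benjamini-Hochberg adjusted p under 0.05 over all tested genes of a comparison, in either direction. WT_HFD replicate 3 was left out from the start, as part of how the set was defined, and was kept in 1 alternative. Its depth and its share of counts on antisense genes are given above. The members and all gene lists were chosen with earlier results of these data known. Named genes were the members, Apoe, 6 regulators, called list members, the 2 smallest p-values of each list in the diet comparisons, and the 5 genes most like a member, of which 1 is not reported here. The steps were tested on simulated data. Between replicates of a group, chi-square divided by its degrees of freedom was 24.55 to 189.7 over genes, so no library was counted as a duplicate. Limma 3.58.1 (voom with sample weights), DESeq2 1.42.0, RLE factors, other filters, the replicate number as a block and each library left out were alternatives. Intervals and detection floors cover counting error only.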

Additional observations from a re-analysis of the deposited data

Results flagged for a closer look

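The log2 fold change of Scd2 with diet was 1.73 (SE 0.23) in the libraries labelled ApoeKO and -0.91 (SE 0.24) in those labelled WT, a difference of 2.63 (SE 0.34). It is listed here because the diet effects of the 2 labels lay apart in the fit. The difference contains the comparison from which the genes were chosen and rests on chow labels that Apoe goes against, so it is a description and supports nothing. With 1 library left out it ranged from 2.37 to 2.87.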

How the results depend on the processing

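The number of the 7 tested genes called changed under these settings. WT_HFD against WT_CD went from 0 to 1 with DESeq2 and without the filter, as did ApoeKO_HFD against WT_CD (Scd2 each time). ApoeKO_CD against WT_CD went from 1 to 2 with DESeq2 and without the filter (Scd1 joined). WT_HFD against ApoeKO_CD fell from 1 to 0 with all 12 libraries, with at least 50 counts in 3 libraries, and with the replicate block. For ApoeKO_HFD against ApoeKO_CD and the difference of the diet effects, which are descriptions, no calls of members are given. With 1 library left out the counts were 1 to 2 for ApoeKO_CD against WT_CD and 0 to 0 for ApoeKO_HFD against WT_CD. Leaving out 1 WT_HFD library leaves a lone sample assumed to vary like the other groups, so such counts are not given for comparisons with WT_HFD. Pairs of groups without overlap went from 4 to 2 for Fads1 (plain CPM, where none of the 2 involved ApoeKO_CD) and from 1 to 0 for Elovl1 (plain CPM, and CPM of nuclear genes). The cause was not tested.

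Log2 fold changes that changed sign were uncalled ones. Without the filter they were Elovl5 in WT_HFD against WT_CD (0.057) and Fads3 in ApoeKO_CD against WT_CD (0.039) and in ApoeKO_HFD against WT_CD (0.032). With all 12 libraries they were Fads2 in ApoeKO_HFD against WT_HFD (-2.06) and in the difference of the diet effects (-1.74), and Elovl1 (0.067) and Elovl5 (-0.046) in WT_HFD against ApoeKO_CD. Scd2 in ApoeKO_HFD against WT_HFD was -0.17 with the 4 Scd genes summed, an alternative chosen after seeing the data.

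With 1 library left out the sign also changed within these ranges. In WT_HFD against WT_CD they were -0.15 to 1.02 for Fads2, -0.54 to 0.048 for Elovl1 and -0.16 to 0.092 for Elovl5. In ApoeKO_HFD against ApoeKO_CD they were -0.11 to 0.069 for Fads3, -0.052 to 0.41 for Scd4 and -0.056 to 0.35 for Srebf1. In ApoeKO_CD against WT_CD they were -1.99 to 0.34 for Fads2, -0.19 to 0.060 for Fads3 and -0.29 to 0.061 for Elovl1. In ApoeKO_HFD against WT_HFD they were -0.15 to 0.67 for Scd1, -0.13 to 0.37 for Scd2, -0.024 to 0.15 for Fads1, -0.14 to 0.25 for Fads2 and -0.54 to 0.048 for Elovl1. In ApoeKO_HFD against WT_CD they were -0.073 to 1.10 for Fads2, -0.21 to 0.044 for Fads3 and -0.036 to 0.14 for Elovl5. In WT_HFD against ApoeKO_CD they were -0.41 to 0.18 for Elovl1 and -0.021 to 0.26 for Elovl5. For the difference of the diet effects they were -0.26 to 2.07 for Fads2 and -0.41 to 0.18 for Elovl1.

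Counts of all genes called moved by more than 1.5 times, lowest with all 12 libraries (or, for WT_HFD against ApoeKO_CD, in that and other settings) and highest without the filter. ApoeKO_CD against WT_CD called 86, with 3 to 475 over the settings and 37 to 1801 with 1 library left out. ApoeKO_HFD against WT_CD called 26 (0 to 296, and 0 to 1304) and ApoeKO_HFD against ApoeKO_CD 12 (1 to 26, and 6 to 14). Over the settings, WT_HFD against WT_CD called 35 (1 to 272), ApoeKO_HFD against WT_HFD 8 (1 to 49) and WT_HFD against ApoeKO_CD 2 (0 to 56). The difference of the diet effects called 37 (8 to 105). For comparisons that involve WT_HFD, counts with 1 library left out are not given, for the reason stated above.

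The groups share replicate numbers, but 15 pairs of same-numbered libraries had deviations correlated at -0.18 to 0.19, 1 of them above 0.1, so the numbers were not treated as pairs. With the replicate block ApoeKO_CD against WT_CD called 61 genes in place of 86. Depth limits Fads2 and Elovl6, where 3 counts correspond to 0.0668 to 0.119 CPM.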

Other observations

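Outside the 8 genes, the other desaturases and elongases were sparse apart from Scd4, Degs1 and Fads6. Degs1, which encodes the desaturase that makes ceramide, had 4.18 ± 1.04 CPM per kilobase (SD over 11 libraries), below Fads3 alone among the 17 genes of both lists. Its levels overlapped in every pair of groups. Fads6 had 16 to 51 counts per library and also overlapped throughout. Elovl2, Elovl3, Elovl4, Elovl7 and Degs2 had at most 10 counts in any library, and Degs2 had 0 in 8 of 11. These sparse genes did not pass the filter and were not tested.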
